A study of Mus musculus with 12 samples.

Results

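C/D box small nucleolar RNAs, the guide RNAs encoded by the Snord genes, were followed across pancreas tumours of mice in which FAP-positive or aSMA-positive stromal cells had been targeted. They were chosen by name: every gene whose symbol begins with Snord and a number and that has a probe set listing only that symbol, with the probe set of highest mean kept for each. That gave 44 of the 30142 genes measured, from 47 probe sets. The group was proposed because its members had already been seen to differ in these data, so its overall direction is given as a description and is not independent evidence.

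C/D box small nucleolar RNAs base-pair with ribosomal RNA precursors in the nucleolus and direct the methyltransferase fibrillarin (Fbl) to the sugar of a chosen nucleotide. A few, such as U8 (Snord118) and U13 (Snord13), act in the cleavage, folding or acetylation of ribosomal RNA instead. Most are cut out of introns of host genes, many of which encode ribosomal proteins or nucleolar factors, and are then bound by Nop58, Nop56, Snu13 and fibrillarin.

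All 12 tumours arose in PKT mice, which develop pancreatic ductal adenocarcinoma from engineered alleles, and the series text lists 3 mice for each of 4 groups, measured on 1 array each. The FAP-TK control and FAP depleted groups form the FAP line, and the aSMA-TK control and aSMA depleted groups form the aSMA line. TK is thymidine kinase, a suicide enzyme that ganciclovir turns against its own cell, and in these names it is paired with fibroblast activation protein (Fap) or alpha smooth muscle actin (Acta2). The labels list ganciclovir at 50 ug per kg for every tumour and describe the TK controls as without depletion, so whether the controls received the drug is not clear. The labels give no ages. Xist, an RNA of female cells, was at 4.89, 4.48 and 17.06 in the FAP-TK controls and 16.48, 5.02 and 4.65 after depletion. In the aSMA line it was at 15.11, 5.30 and 4.74 in the controls and 4.80, 15.58 and 14.93 in the group labelled depleted. The mice of a group may thus be of both sexes, and sex was not part of the model. Fap was lower in the FAP depleted tumours by -1.11 ± 0.37 (SE) and was not called. Acta2 was higher, by 1.68 ± 1.71, in the group labelled aSMA depleted and was not called either, so these animals are named the tumours labelled aSMA depleted, or the labelled group, in the results.

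Values are log2 intensities, quantile normalized between arrays, and all differences are in log2 units. A probe set's level depends on its own sequence, so levels are compared between tumours and not between members. A difference was called where limma's moderated test had an adjusted p under 0.05 over all 30142 genes. A member counted as above background on an array where it exceeded the 95th percentile of the negative-control probe sets. That limit differed between arrays, from 8.21 (aSMA depleted 3) to 11.29 (FAP-TK control 1) on the values as deposited.

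Array quality differed between tumours. The separation of positive from negative control probe sets was low on 3 arrays of the FAP line, at 2.97 (FAP-TK control 1), 2.99 (FAP-TK control 3) and 2.69 (FAP depleted 2), against 4.32 to 4.89 on the other 9 arrays. Negative-control medians ran from 5.46 to 6.49 in the FAP line and from 4.46 to 4.88 in the aSMA line. Of the 44 members 14 were above background on all 12 arrays, 28 on at least 3, and 14 on none. Of all 30142 genes 1580 were above background on all 12 arrays, 4518 on at least 3, and 24607 on none. Shares, medians and spreads over all genes are therefore mostly those of dim genes. Just inside that limit of 3 arrays lay Snord11 and Snord118, at 3 arrays each, and just outside lay Snord66 and Snord73a, at 1 array each. The highest of 23 other control probe sets, the antigenomic background, gave a lower limit, chosen after seeing the data. On at least 3 arrays 41 members and 13460 genes exceeded it. Of members above background on no array, Snord14a and Snord23 exceeded it on 11 arrays each and Snord85 on 0. The labels say that RNA was checked on a Bioanalyser but give no value, so RNA integrity was not analysed here. Their labelling kit, MessageAmp, is known to prime from poly(A) tails, which mature C/D box RNAs lack, but the kit is listed for another maker's arrays than the probe identifiers show. Whether a probe set inside an intron read processed small RNA or unspliced host RNA was not tested.

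Of the members, 41 lie within the span of another gene in RefSeq (GRCm38.p6; strand was not compared), 13 of them in a ribosomal protein gene, 22 in another coding gene (Snord87 among them, which lies in the span of Mcmdc2 as well as of the noncoding Snhg6) and 6 in noncoding genes alone. Snord13, Snord118 and Snord89 lie in none. Nop58, Rpl23a, Rpl3 and 2410006H16Rik hold 2 members each, and no gene held 3. Start-site sequence is shown as an example for genes that hold 4 of the members named below: Gnl3 for Snord69 (chr14:31019082-31019181, minus strand), Nop58 for Snord11 (chr1:59684956-59685055, plus strand), Wdr43 for Snord92 (chr17:71616165-71616264, plus strand) and Tsr1 for Snord91a (chr11:74898030-74898129, plus strand). Snord92 and Snord91a were above background on no array, and the genes that hold Snord58b and Snord87 are not shown. Each run is 100 bases from RefSeq, GRCm38.p6, 5′ to 3′ along the gene, with 50 bases before the start and 50 from it, and capitals mark the E-box CACGTG.
Gnl3: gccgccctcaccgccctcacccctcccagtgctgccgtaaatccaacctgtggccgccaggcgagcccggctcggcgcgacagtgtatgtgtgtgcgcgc
Nop58: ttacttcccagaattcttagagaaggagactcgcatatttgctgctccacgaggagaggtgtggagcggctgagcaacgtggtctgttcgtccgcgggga
Wdr43: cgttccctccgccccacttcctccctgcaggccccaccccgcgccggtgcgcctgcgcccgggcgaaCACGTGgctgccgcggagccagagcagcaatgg
Tsr1: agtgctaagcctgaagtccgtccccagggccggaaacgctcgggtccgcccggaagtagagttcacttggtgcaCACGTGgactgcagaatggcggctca

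The E-box CACGTG, which reads the same on both strands and is bound by basic helix-loop-helix factors such as Myc, lies just after the start in Wdr43 and Tsr1. In the full RefSeq window of 300 bases it was present for 8 of the 31 containing genes that have a window, against 8.09% of all 27025 genes with a window (7.15% of all 32851 windows). A match describes letters only, and binding was not measured.

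The comparison within the FAP line asked what differs in the tumour when FAP-positive cells are targeted. C/D box RNAs were mostly at higher values in the FAP depleted tumours, though no single member passed the test. The median of the 44 members was 9.30, 9.40 and 9.80 in the FAP-TK controls and 10.23, 11.31 and 10.11 after depletion. All 3 depleted tumours lay above all 3 controls. Of the members 38 were higher, where 59.9% of all genes were, and the median difference was 0.87, against 0.04 over all genes. limma called 0 of 44 members and 0% of all genes, and 10 members had an unadjusted p under 0.05, all of them higher (2.65% of all genes were higher at that p). Differences of at least 1 in size were found for 17 of 44 members and 1.89% of all genes.

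Members also varied more within a group than all genes did at the median, which bears on the size of these differences. Most of all genes were dim, so the 2 spreads are not of genes of like level. The members' median SD among the 3 FAP-TK controls was 0.85, against 0.21 over all genes, and among the FAP depleted tumours 0.58 against 0.19. In the aSMA-TK controls it was 0.48 against 0.16, and in the tumours labelled aSMA depleted 0.51 against 0.19. Other lists differed among the FAP-TK controls. Their median SD was 0.70 for ribosomal protein genes, 0.88 for ductal markers and 1.27 for H/ACA box RNAs. It was 0.41 for nucleolar and RNA polymerase I factors and 0.09 for T cell markers. FAP-TK control replicate 1, an array of low separation, was the highest of its group for 20 members and the lowest for 16. Without the 3 arrays of low separation, 35 of 44 members were higher in the FAP comparison and the median difference was 1.03. That fit sets FAP depleted replicates 1 and 3 against FAP-TK control replicate 2 alone, so its size rests on a single control tumour.

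**Figure D1:**
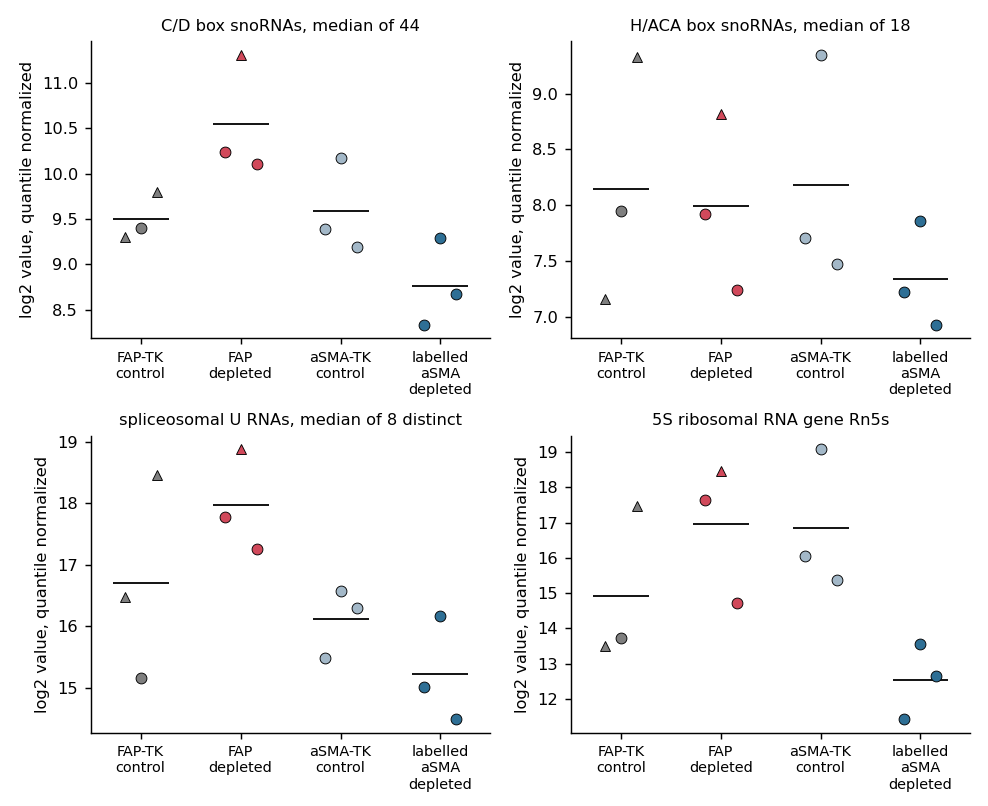
Log2 value per tumour in the 4 groups for the median of the 44 C/D box RNAs, the median of 18 H/ACA box RNAs, the median of 8 distinct spliceosomal U RNAs and the 5S ribosomal RNA gene Rn5s. Points are arrays, triangles the 3 arrays of low control-probe separation and bars group means; the C/D box medians of the FAP depleted tumours, from 10.11 to 11.31, all sit above those of their controls.

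The depleted and control tumours of the FAP line did not overlap for 7 members, all higher (5.6% of all genes were higher without overlap). They were Snord11, Snord14e, Snord45b, Snord58b, Snord69, Snord87 and Snord92, the guides held by Nop58, Hspa8, Rabggtb, Rpl17, Gnl3, Snhg6 and Wdr43 in that order. For no member did the depleted tumours all lie below the controls (2.5% of all genes).

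Snord69 (chr14:31014293-31014351, 59 bases, within the nucleostemin gene Gnl3) had the smallest p. Its values were 15.68, 15.62 and 16.23 in the FAP-TK controls and 17.08, 17.20 and 17.10 after depletion. The latter lay close together and above every control, by 1.28 ± 0.21 (SE of 3 against 3; limma adjusted p = 0.785). Snord82, held by the nucleolin gene Ncl, differed far less, at 0.38 ± 0.34, and its controls, from 15.02 to 16.57, spanned its depleted tumours. Snord49b and Snord42a, named like Snord82 for a high mean signal, differed by 1.27 ± 0.70 and 1.39 ± 0.60, with overlap.

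Snord58b, held by the ribosomal protein gene Rpl17, ran at 13.68, 13.16 and 13.61 in the controls and 15.60, 14.93 and 15.64 after depletion. Every depleted tumour was higher by more than the controls' own range, and the difference was 1.91 ± 0.39 (limma adjusted p = 1.00). Its other probe set had nearly the same values, although the identifiers name different chromosomes, so the copies cannot be told apart.

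Snord87 (chr1:9942470-9942543, within the spans of the noncoding host gene Snhg6 and of Mcmdc2) stood at 14.29, 13.46 and 14.45 in the controls and 15.61, 15.54 and 15.07 after depletion. The groups did not overlap, and the difference was 1.34 ± 0.34 (limma adjusted p = 1.00). Snord92, within Wdr43, was at 5.11, 5.05 and 5.06 in the controls and 5.72, 5.84 and 6.72 after depletion, a difference of 1.02 ± 0.27. It was above background on no array, so this separation is among dim values.

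The widest differences came with wide spreads. Snord118, the U8 RNA needed for processing of the large-subunit ribosomal RNAs, was at 4.69, 6.49 and 9.46 in the FAP-TK controls and 9.40, 11.06 and 8.04 after depletion. The groups overlapped, and the difference was 2.62 ± 1.24. A second probe set listed for Snord118 stayed between 3.01 and 4.18 on all 12 arrays. Its identifier names another chromosome than that of the gene and of the kept probe set. Whether it reads this gene was not tested. Snord17, held by Snx5, was at 9.54, 11.37 and 14.55 in the controls and 13.33, 15.50 and 13.14 in the depleted tumours, with a difference of 2.17 ± 1.18. Here too the groups overlapped, through control replicate 3.

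Snord72 in Rpl37 (2.04 ± 0.90), Snord111 in Sf3b3 (1.90 ± 0.63), Snord49a (1.69 ± 0.70) and Snord15a in Rps3 (1.63 ± 0.75) were also among the members of larger difference, with overlap. The 6 members that were lower differed by at most -0.37 ± 0.46, for Snord123. Snord64, from the imprinted Snrpn region through its host transcript Snhg14, differed by -0.25 ± 0.44, and Snord88c by -0.13 ± 0.12. Snord98, held by Ccar1, was at -0.14 ± 0.72.

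**Figure D2:**
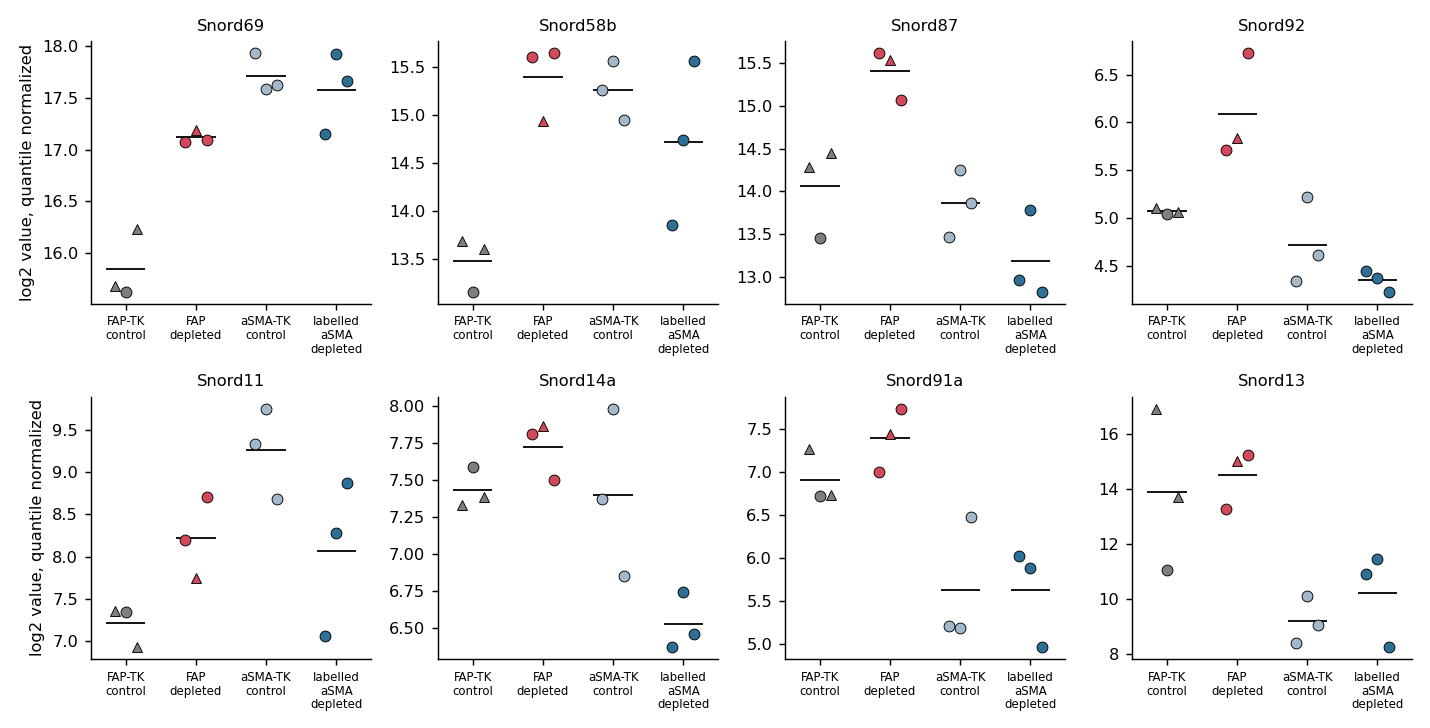
Log2 value per tumour in the 4 groups for Snord69, Snord58b, Snord87, Snord92, Snord11, Snord14a, Snord91a and Snord13, each panel with its own axis. Points are arrays, triangles the 3 arrays of low control-probe separation and bars group means; Snord69 is at 17.08 to 17.20 in the FAP depleted tumours and at 15.62 to 16.23 in their controls.

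In the aSMA line members were mostly at lower values in the tumours labelled aSMA depleted. The member median was 9.39, 10.17 and 9.20 in the aSMA-TK controls and 8.33, 9.29 and 8.67 in the labelled group. The values of the labelled group were low but overlapped, since its replicate 2 at 9.29 was above control replicate 3. Of the 44 members 36 were lower, where 46.8% of all genes were, and the median difference was -0.43, against 0.01 over all genes. Without aSMA-TK control replicate 2 alone it was -0.20, with 33 lower. limma called 0 members and 0% of all genes, and 6 members had an unadjusted p under 0.05, all of them lower (2.34% of all genes). Differences of at least 1 in size numbered 8, against 2.79% of all genes.

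The groups did not overlap for 6 members, all lower (5.08% of all genes): Snord14a, Snord17, Snord23, Snord35b, Snord85 and Snord93. None lay higher without overlap (7.43% of all genes). Snord14a, Snord23, Snord35b and Snord85 were above background on no array. Of the 7 members without overlap in the FAP line, none was among these 6.

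Snord14a, held by the ribosomal protein gene Rps13, was at 7.37, 7.98 and 6.85 in the aSMA-TK controls and 6.37, 6.74 and 6.46 in the labelled group. All values of the labelled group were lower, by -0.87 ± 0.25 (limma adjusted p = 0.944), though it was above background on no array. Snord23, held by Nop53, ran from 6.42 to 6.60 in the controls and at 5.62, 6.34 and 5.88 in the labelled group, a difference of -0.58 ± 0.19. Snord85 was at 3.63, 4.46 and 3.83 against 3.17, 3.19 and 3.29, at -0.76 ± 0.21, and was above background on no array.

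Snord93 was at 9.57, 9.66 and 10.64 in the aSMA-TK controls and 7.13, 8.53 and 7.58 in the labelled group. This was the widest downward difference, at -2.21 ± 0.78. Snord14e, within the heat shock protein gene Hspa8, was nearly as wide at -2.16 ± 0.86, with 10.12, 13.16 and 10.01 in the controls and 7.78, 10.37 and 8.66 in the labelled group. Its groups overlapped, since control replicate 2 stood far above the other two controls while replicate 2 of the labelled group stood above them by little. Snord17 was at 13.00, 14.15 and 12.88 in the controls and 12.26, 12.78 and 10.47 in the labelled group, a difference of -1.50 ± 1.18.

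Among the 8 members that were higher, Snord13 differed by 1.01 ± 1.36, Snord64 by 0.80 ± 0.44 and Snord98 by 0.47 ± 0.72. Snord69 and Snord82 were nearer to 0, at -0.14 ± 0.21 and 0.02 ± 0.34.

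The FAP and aSMA comparisons share no tumour. In all 32 of 44 members were higher in the first and lower in the second, as were 31.6% of all genes. The difference between the effects, aSMA line minus FAP line, was below 0 for 38 members, where 53.6% of all genes were, with a median of -1.14, against -0.03 over all genes. limma called 0 members and 0% of all genes on that difference, and the smallest adjusted p was 0.829. At an unadjusted p under 0.05 there were 16 members, all below 0 (3.87% of all genes). By smallest p they were led by Snord69 at -1.42 ± 0.30, Snord58b at -2.45 ± 0.55 and Snord87 at -2.01 ± 0.48. Without the 3 arrays of low separation 40 members were below 0 and the median was -1.62, with replicate 2 as the only FAP-TK control left.

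**Figure D3:**
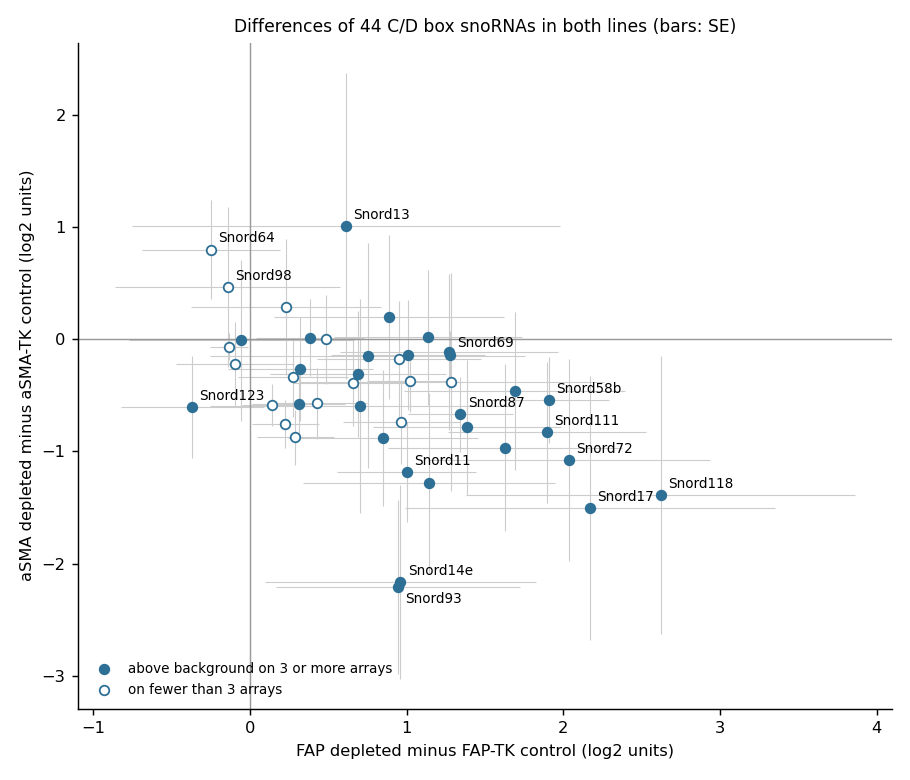
Difference of each of the 44 C/D box RNAs in the aSMA line against its difference in the FAP line, in log2 units, with bars of 1 SE. Filled points were above background on at least 3 arrays and open points on fewer; 32 members fall in the lower right, higher in the FAP comparison and lower in the aSMA comparison.

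Members were also grouped by the kind of gene that holds them. The 13 members in ribosomal protein genes had median differences of 0.95 in the FAP line (12 higher) and -0.54 in the aSMA line (12 lower). The 22 in other coding genes had medians of 0.79 (19 higher) and -0.36. The 6 in noncoding genes were at 0.90 and -0.53 and the 3 in no gene at 0.70 and -0.59. Differences between these classes were not tested.

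Host genes are transcribed together with the small RNAs in their introns, so their own values were set beside those of the members. Of the ribosomal protein genes that hold members only Rpl4 and Rps3a1 were measured, so that class is little represented. With these, 24 containing genes were measured, for 21 members. Their median difference was 0.02 in the FAP line (13 of 24 higher, from -0.63 to 0.39) and 0.10 in the aSMA line (17 of 24 higher, from -0.46 to 0.41), and limma called 0 of them in either. The 21 members had medians of 0.69 and -0.34. The sign was shared in 13 of 25 pairs of member and gene in the FAP line and in 10 of 25 in the aSMA line. Snord17 differed by 2.17 in the FAP line and its sorting nexin host Snx5 by -0.14, and Snord87 by 1.34 and Snhg6 by -0.18. Snhg6 and several other containing genes, such as Chd8, Nop53 and Snhg18, were above background on no array. Hspa8, which holds Snord14e, lay at or close to the highest value of every array. Differences near 0 for such genes do not show how these hosts behaved. Gnl3, which holds Snord69, had no probe set of its own symbol alone and is not analysed here.

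**Figure D4:**
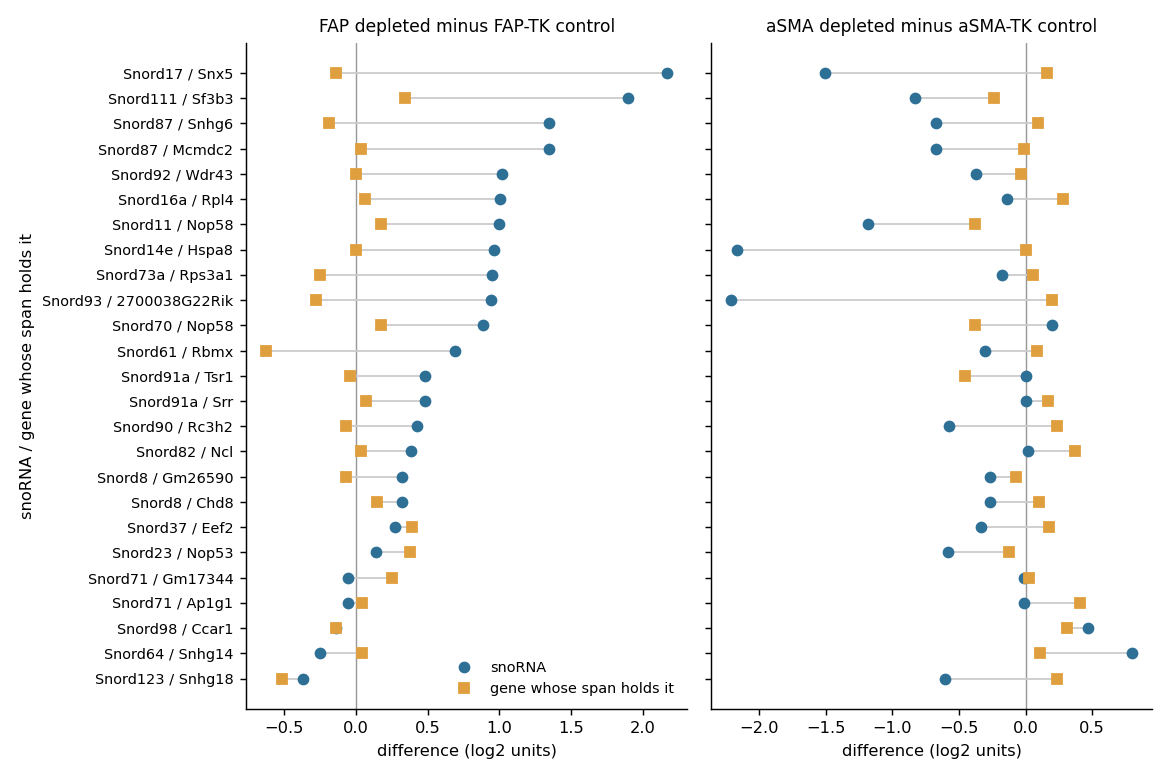
Differences in log2 units in the FAP line (left) and the aSMA line (right) for 25 pairs of a C/D box RNA and a gene whose span holds it, in the order of the snoRNA's FAP difference. Circles are snoRNAs and squares the containing genes, which stay between -0.63 and 0.41 in both panels.

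Between the TK control groups, which asks how the lines differ without depletion, the members numbered 23 higher and 21 lower in the aSMA-TK controls, where 58.2% of all genes were higher, with a median of 0.17 against 0.07 over all genes. This balance depended on the scaling, with 36 higher and 8 lower (median 1.15, all genes 1.20) when arrays were centred on the negative controls and 17 higher and 27 lower (median -0.44, all genes -0.39) on the values as deposited. It turned to a median of -0.11 (21 higher, 23 lower) without aSMA-TK control replicate 2 alone. This comparison shares its control tumours with both comparisons above, and line cannot be told apart from the higher background of the FAP-line arrays. limma called 3 of 44 members, all higher in the aSMA-TK controls, while it called 7.8% of all genes (4.78% higher).

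Snord69 was at 17.93, 17.59 and 17.63 in the aSMA-TK controls, above all 3 FAP-TK controls by 1.87 ± 0.21 (limma adjusted p = 0.00500). It stayed called without any single array and was lost only with the filter on dim genes among 12 other settings (adjusted p = 0.0609). Snord58b was at 15.26, 15.56 and 14.95, above all FAP-TK controls by 1.77 ± 0.39 (limma adjusted p = 0.0291). That call was lost without any 1 of the FAP-TK controls or without aSMA-TK control replicate 1 or 2, with adjusted p up to 0.0974, and it held in 8 of 12 other settings.

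Snord11 (chr1:59704808-59704870, within Nop58, whose protein binds these RNAs) was at 7.36, 7.35 and 6.93 in the FAP-TK controls and 9.33, 9.75 and 8.69 in the aSMA-TK controls. The groups did not overlap, and the difference of 2.04 ± 0.45 was called (limma adjusted p = 0.0292), while Nop58 itself differed by 0.40. It was lost without FAP-TK control replicate 1 or 3 or aSMA-TK control replicate 1 or 2, with adjusted p up to 0.0982, and it held in 6 of 12 other settings. In the depletion comparisons Snord11 differed by 1.00 ± 0.45 in the FAP line and by -1.18 ± 0.45 in the aSMA line. Snord70, held by the same gene, differed by 0.89 ± 0.73 and 0.20 ± 0.73.

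Without overlap 6 members were higher in the aSMA-TK controls (21.3% of all genes) and 3 were lower (13.8%), namely Snord13, Snord91a and Snord98. Snord13 (chr8:31149861-31149958), the U13 RNA with a transcription unit of its own, was at 16.93, 11.04 and 13.72 in the FAP-TK controls and 8.41, 10.11 and 9.04 in the aSMA-TK controls. Its difference of -4.71 ± 1.36 was the widest of any member and was not called (limma adjusted p = 0.0636). The range of 5.88 within the FAP-TK controls was also the widest of any member, and replicate 1, the highest, was an array of low separation. Snord91a, within Tsr1, differed by -1.28 ± 0.40 (limma adjusted p = 0.0747) and Snord98 by -1.99 ± 0.72 (limma adjusted p = 0.109). Both were above background on no array.

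Over the 4 groups together limma's moderated F test called 5 of 44 members, where 6.68% of all genes were called. They were Snord69 (adjusted p = 0.00578), Snord87 (0.0209), Snord92 (0.0217), Snord91a (0.0412) and Snord58b (0.0430). Snord69 was lowest in the FAP-TK controls, and Snord91a was higher on every FAP-line array (from 6.72 to 7.74) than on any of the aSMA line (from 4.96 to 6.47). Snord91a was above background on no array, and the negative controls were also brighter in the FAP line. Snord87 and Snord92 were highest in the FAP depleted tumours. Snord69 stayed called without any single array. The call of Snord87 was lost without FAP depleted replicate 1 or 2, and that of Snord92 without replicate 2 or 3 of the group labelled aSMA depleted. Those of Snord58b and Snord91a held in only 3 of 12 fits without 1 array. Without the 3 arrays of low separation only replicate 2 of the FAP-TK controls is left, so these calls could not be checked that way.

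After group means were removed, the members whose values followed Snord69 most closely over the 12 arrays were Snord118 (r = 0.61), Snord43 (r = 0.57) and Snord23 (r = 0.53). Snord43 and Snord23 were above background on no array, and Snord118 on 3. Over the other members r ran down to -0.48, for Snord4a. These correlations are descriptions over arrays that share the group fit and the normalization.

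Other short noncoding RNAs were set beside the members. U3, itself a C/D box RNA that acts in ribosomal RNA cleavage, is named Rnu3 here and so fell outside the rule. Its 5 genes gave 3 distinct sets of values, near-identical copies that may share signal, with differences from 1.05 to 1.94 in the FAP line and from -1.36 to -0.45 in the aSMA line. The 18 H/ACA box RNAs, which guide pseudouridylation, had a median difference of 0.71 in the FAP line (14 higher) and -0.65 in the aSMA line (16 lower). Their median on each array did not show the FAP direction, at 7.16, 7.94 and 9.33 in the FAP-TK controls and 7.92, 8.82 and 7.24 after depletion. The 9 genes of spliceosomal U RNAs, with 8 distinct sets of values and partly near-identical copies, were higher in the FAP line for 8 of 8 (median 1.23) and lower in the aSMA line for 8 of 8 (median -0.82). The 6 small Cajal body RNAs were at 0.10 and -0.26. limma called 0 of these in either comparison. Rn5s, a gene of 5S ribosomal RNA named after its values were seen, differed by 2.04 ± 1.38 and -4.30 ± 1.38, and it too has near-identical copies that cannot be told apart. RefSeq lists 34 of the measured genes as ribosomal RNA, such copies included. In the FAP line 32 of these were higher and 2 were lower, down to -2.73. In the aSMA line 33 were lower and 1 was higher.

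Not every short RNA had these directions. Rmrp, the RNA of a ribosomal RNA processing enzyme, was at -0.65 in the FAP line and 0.36 in the aSMA line, and Rpph1, the RNA of ribonuclease P, at -0.19 and 0.11. Both belong to a list of 9 genes labelled nuclear RNAs. The list is not of short RNAs alone, since it holds Malat1, Neat1 and Xist and the kinase genes Clk1 and Clk4. In the FAP line all 9 were lower (median -0.47), though Malat1 (-0.004) and Rn7sk (-0.002) were near 0. Xist was high on some arrays of every group and low on others. In the aSMA line 7 of the 9 were higher (median 0.13), and 0 were called in either line. Rn7sk of that list lay at or close to the highest value of every array, where a difference could not be measured. The 42 ribosomal protein genes had medians of -0.08 and -0.02. Of 600 microRNAs 536 were above background on no array, so their medians near 0 (-0.05 and -0.04) do not show how microRNAs behaved. Probe sets that name a Snord gene together with other genes, 25 in all, were left out here. Their 23 distinct sets of values had medians of -0.01 in the FAP line and -0.10 in the aSMA line. Whether these probe sets read the small RNA or the other genes they name was not tested.

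The proteins that build C/D box particles were measured as messenger RNA. Of the core proteins Fbl differed by 0.13 in the FAP line and -0.38 in the aSMA line, and Nop58 by 0.17 and -0.38. The 8 assembly factors had medians of 0.32 (6 higher) and -0.08 (2 higher), with the ATPase gene Ruvbl1 at 0.43 and -0.37. The 9 nucleolar and RNA polymerase I factors were at 0.12 (8 higher) and 0.01 (5 higher). The 5 enzymes that trim intronic RNA were at 0.19 and 0.14, among them the exonuclease gene Xrn2 at 0.69 in the FAP line. The noncoding host genes, 9 measured of 23 listed, had a median of -0.18 in the FAP line (2 of 9 higher) and 0.10 in the aSMA line. In both comparisons limma called 0 genes of these lists. Above background on no array were all 8 assembly factors, 5 of the 9 nucleolar factors, 3 of the 5 trimming enzymes and 8 of the 9 noncoding host genes. The medians of these lists are thus largely those of dim genes.

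Markers of cell types in the tumours also differed between the groups, with 0 of those named here called in the depletion comparisons. In the FAP line all 6 measured acinar markers of 8 listed were higher (median 1.72) and all 8 ductal markers were higher (median 0.98), while all 7 measured fibroblast markers of 8 were lower (median -0.61). The summed level, log2 of the sum of a list's intensities, ran for acinar markers from 16.72 to 19.17 in the FAP-TK controls, 16.56 to 19.59 in the FAP depleted tumours, 19.87 to 19.96 in the aSMA-TK controls and 12.68 to 20.02 in the tumours labelled aSMA depleted. That of ductal markers ran from 17.36 to 19.26, 17.999 to 20.24, 18.51 to 19.39 and 18.44 to 19.09 in the same order. The acinar sums are carried by Ctrb1, which was the highest gene of the array in all 3 aSMA-TK controls and in replicates 2 and 3 of the labelled group, so these levels are at the ceiling. Without Ctrb1 the acinar sum ran from 8.51 to 11.98, 10.85 to 13.61, 12.63 to 15.77 and 7.90 to 16.70 in the same order. In the aSMA line all 7 fibroblast markers were higher (median 0.51). Their summed level ran from 14.53 to 14.98, 12.26 to 15.53, 13.32 to 14.71 and 14.07 to 16.17. The part of cell makeup in the snoRNA differences was not tested, and in whole tumours fewer cells of a type and less RNA per cell cannot be told apart.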

How the data were processed

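The authors deposited 1 table of processed values for 72688 probe sets on 12 one-colour arrays. The log2 intensities were made by the authors with limma among their tools, per the submitters' processing notes, and no other step before deposit is stated. The log2 scale itself was read from the deposited values, which run from 1.64 to 19.93. The members and lists were chosen with earlier results of these data known.

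The 6732 control probe sets were removed and the other 65956 were quantile normalized between arrays, because column quantiles differed. Probe sets with 1 listed symbol (30604) gave 30142 genes, with the probe set of highest mean kept per gene and symbols updated through RefSeq GRCm38.p6. A model in limma 3.58.1 (R 4.3.3, statmod 1.5.0) gave each group its own mean and all 12 arrays a common spread with 8 residual degrees of freedom, with two-sided moderated tests and Benjamini-Hochberg adjustment over all genes. The fit was checked on simulated data. Named members were those called, the 3 of smallest p per comparison and direction, the 5 of highest mean and those beside the background limit. The split of U RNAs and the acinar sum without Ctrb1 were chosen after their values were seen, as were other members named, such as Snord17, Snord93 and Snord72. Alternatives changed the normalization, filter, offset, variance model, probe set rule, array weights and arrays. Precision is limited by 3 arrays a group.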

Additional observations from a re-analysis of the deposited data

Results flagged for a closer look

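The effects of depletion pointed in opposite directions in the lines for the median of the members on each array and for 17 of the 44 members, where 6.3% of all genes did so in the same direction. In each case every depleted tumour of the FAP line lay above its control mean and every tumour labelled aSMA depleted lay below its own. limma called none of the 17 members on the difference between the effects, and the difference of the array medians was not tested. That difference, aSMA line minus FAP line, was -1.87 for the array medians, from 1.05 in the FAP line and -0.82 in the aSMA line.

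Among the members the difference was widest for Snord118 at -4.01, Snord17 at -3.68, Snord14e at -3.12 and Snord72 at -3.11. It was -2.73 for Snord111, -2.60 for Snord15a, -2.42 for Snord45b, -2.19 for Snord11, -2.17 for Snord42a, -2.15 for Snord49a and -2.01 for Snord87. It was -1.70 for Snord35b, -1.40 for Snord92, -1.17 for Snord14a, -1.05 for Snord83b, -0.99 for Snord85 and -0.89 for Snord35a.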

How the results depend on the processing

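No setting called any member in the FAP or aSMA comparison or in the difference between the effects. With 1 array left out the median member difference ran from 0.58 to 0.97 in the FAP line, from -0.57 to -0.20 in the aSMA line, from -1.41 to -0.89 for the difference between the effects and from -0.11 to 0.29 between the control groups. Under 12 other settings it ran from 0.60 to 1.17 and from -0.59 to -0.28 in the lines. The 1.17 came with arrays centred on the negative controls, which shifts all genes of an array by the same amount, members included. The difference between the effects moved to -1.68 when arrays were centred on the negative controls, and the fit on only the groups compared was not run for it, being the same fit. Between the control groups the median turned with the scaling, at 1.15 centred on the negative controls, 0.68 with the filter on dim genes and -0.44 on the values as deposited. Members called between the control groups, 3 in the report (7.8% of all genes), numbered 10 with array weights (22.1%), 22 centred on the negative controls (69.2%), 9 with median centring (19.1%), 18 as deposited (41.3%), 1 with control-probe separation as covariate (3.36%), 0 with the filter on dim genes (0%), 1 with the filter on the antigenomic background, chosen after seeing the data (1.27%), and 1 to 6 without 1 array. Members called over the 4 groups numbered 5 in the report (6.68% of all genes). Under the same settings in that order they numbered 19 (24%), 24 (57.4%), 14 (16.6%), 26 (47.4%), 2 (1.78%), 1 (0.443%) and 1 (0.795%). They numbered 3 with an offset of 50 (4.57%) and 2 to 7 without 1 array. Over all genes the calls between the control groups ran from 0 to 20853 (2350 in the report) and over the 4 groups from 20 to 17305 (2014). Of 555 alternative values for 24 named differences, 512 kept direction and side of the threshold. Centred on the negative controls, Snord64 and Snord88c reversed in the FAP line to 0.00198 and 0.21, and Snord88c in the difference between the effects to -0.41, as it did to -0.00406 as deposited. With 1 array left out Snord64 ran from -0.67 to 0.16 in the FAP line (reversed without FAP-TK control replicate 1), and in the difference between the effects Snord98 ran from -0.024 to 1.37 (reversed without the same array) and Snord88c from -0.044 to 0.17 (reversed without FAP-TK control replicate 3). Without the 3 arrays of low separation, a fit with replicate 2 as the only FAP-TK control, Snord64 reversed to 0.45 and Snord98 to -0.26. The cause was not tested. No paired analysis was possible because the labels carry no replicate numbers shared between groups. With 14 members above background on no array, differences among them are least certain.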
